A study of Homo sapiens with 24 samples.

Results

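The genes described here are PSCA, SLC26A9, PNLIPRP3 and TPPP2, which were chosen by their measured signal in untransfected HepaRG cells, where they were among the genes with the lowest values in Wnt3a-treated relative to untreated arrays. They are 4 of the 20503 RefSeq genes on the array. Each was measured by 1 probe, whose transcript belongs to the gene, and all 4 passed the filter on dim probes and were among the 24648 genes tested. Since the untransfected arrays chose the genes, values on those arrays are given below as a description with no test.

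Gene expression was measured on 24 one-colour microarrays of HepaRG, an established human hepatocellular carcinoma line with progenitor properties, as 3 arrays for each of 8 conditions. The conditions were untransfected cells, cells transfected with a control siRNA, cells transfected with a β-catenin siRNA (each siRNA at 80 pmol) and cells given FZD8_CRD at 300 ng/ml, each with and without Wnt3a at 200 ng/ml. FZD8_CRD is the soluble Wnt-binding domain of a frizzled receptor. Both proteins were mouse recombinants, added for 72 h in serum-free medium with albumin, and the series design speaks of independent cultures in triplicate. The siRNAs were delivered by an electric pulse to cells in suspension, whereas untransfected cells and cells given FZD8_CRD received no pulse, so that FZD8_CRD has no transfected counterpart. Each replicate number was 1 slide, and the Wnt3a-treated arrays all lay in the second row of their slide, so that Wnt3a and position on the slide cannot be told apart. The number of arrays limits the precision of every value.

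Wnt ligands bind frizzled receptors, and in the canonical pathway this stabilizes β-catenin, which enters the nucleus and acts with TCF/LEF factors on target genes. PSCA is a small surface protein with a glycolipid anchor, of the Ly6/uPAR family, known from epithelia of the stomach, bladder and prostate, and SLC26A9 is a chloride channel and transporter of gastric and airway epithelium. PNLIPRP3 belongs to the pancreatic lipase family, and TPPP2 to a family of tubulin polymerization promoting proteins and is best known from the testis.

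In RefSeq (GRCh38.p14), SLC26A9 spans chr1:205913052-205943456 on the minus strand, PNLIPRP3 chr10:116427847-116477957 and TPPP2 chr14:21024299-21036352 on the plus strand. Promoters, from 250 bases before to 50 after the gene start that the table lists, are shown for 3 of the 4 genes, all but PSCA, because the genes were low together with Wnt3a. They were read 5′ to 3′ on the strand of the gene, from chr1:205943407-205943706 (minus strand) for SLC26A9, chr10:116427597-116427896 (plus strand) for PNLIPRP3 and chr14:21029967-21030266 (plus strand), inside the span of the gene, for TPPP2. Capitals mark the letters CTTTGAA or CTTTGAT, which TCF/LEF factors are known to bind, and TATAAA, a core promoter motif, searched on both strands.
SLC26A9: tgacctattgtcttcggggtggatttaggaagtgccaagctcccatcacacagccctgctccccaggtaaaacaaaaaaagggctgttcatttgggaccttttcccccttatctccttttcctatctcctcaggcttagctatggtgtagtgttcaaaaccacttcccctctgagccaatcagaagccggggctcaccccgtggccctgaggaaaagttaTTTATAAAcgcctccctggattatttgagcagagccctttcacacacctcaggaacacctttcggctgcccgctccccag
PNLIPRP3: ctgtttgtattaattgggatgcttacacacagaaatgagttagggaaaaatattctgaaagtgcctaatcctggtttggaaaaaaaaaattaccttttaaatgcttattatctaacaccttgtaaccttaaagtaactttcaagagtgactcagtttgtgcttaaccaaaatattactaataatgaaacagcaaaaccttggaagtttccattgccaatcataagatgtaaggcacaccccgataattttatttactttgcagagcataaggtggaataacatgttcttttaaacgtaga
TPPP2: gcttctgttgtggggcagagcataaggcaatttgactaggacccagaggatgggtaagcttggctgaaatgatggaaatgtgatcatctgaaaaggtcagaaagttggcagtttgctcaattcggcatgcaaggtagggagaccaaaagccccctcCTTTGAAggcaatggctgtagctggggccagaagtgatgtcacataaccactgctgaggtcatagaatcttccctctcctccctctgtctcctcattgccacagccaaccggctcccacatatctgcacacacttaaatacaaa
In SLC26A9 the TATAAA letters were found on both strands, in matches that overlap, with their first base at -30 on the minus strand and -28 on the plus strand of the sequence as printed. TPPP2 had CTTTGAA at -94. None of these letters was found in the PNLIPRP3 window. Of all 27305 promoters of 300 bases, 4.64% held CTTTGAA, 2.72% CTTTGAT, 7.16% either and 12.3% TATAAA. The motifs were chosen after the sequences were seen, and a match describes letters only.

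Signals are given as a percent of the 75th percentile of all spots on the same array, and differences on the log2 scale. A probe was called well above background by the scanner software. Signals under 1.43%, the median over arrays of the lowest signal well above background, were set to that floor before taking log2. PSCA was well above background on 24 of 24 arrays, SLC26A9 on 16, TPPP2 on 14 and PNLIPRP3 on 10, and 0, 4, 6 and 14 of their arrays were at the floor. The 3 dimmer genes were thus measured near the limit of the arrays in several conditions.

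In untransfected cells, the signal of PSCA was 749%, 1036% and 622% of the 75th percentile in replicates 1, 2 and 3 without Wnt3a and 275%, 125% and 350% with it. SLC26A9 had 19.7%, 14.6% and 7.12% without Wnt3a and 3.57%, 2.73% and 5.27% with it. For each of these genes, every Wnt3a array lay below every untreated array, although replicate 3 showed the smallest gap. PNLIPRP3 had 8.77%, 10.1% and 6.50% without Wnt3a, against 3.79%, 0.985% and 2.61% with it. TPPP2 had 15.5%, 12.6% and 8.72% without Wnt3a, against 5.36%, 1.46% and 5.61% with it. Here too the arrays did not overlap, and replicate 2 with Wnt3a was not well above background for either gene. Such a separation was seen for 4 of the 4 genes and for 6.8% of all genes, a count that the choice of genes fixes. With 3 arrays against 3, chance alone separates 10% of genes counting both directions, and 5% in the 1 direction counted here, if arrays are taken as interchangeable and the pairing by slide is not considered. The log2 differences were -1.77 for PSCA, -1.77 for SLC26A9, -1.78 for PNLIPRP3 and -1.76 for TPPP2. Within slides they ran from -3.05 to -0.83 for PSCA, from -2.46 to -0.43 for SLC26A9, from -2.82 to -1.21 for PNLIPRP3 and from -3.11 to -0.64 for TPPP2. Without replicate 2 the difference was -1.14 for PSCA, -1.26 for PNLIPRP3 and -1.08 for TPPP2, and without replicate 3 it was -2.44 for SLC26A9. With normexp the differences were -0.92 for SLC26A9, -0.58 for PNLIPRP3 and -0.70 for TPPP2. In these bulk samples, fewer cells that express a gene and less RNA per cell cannot be told apart.

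The name given to the group, the genes most lowered by Wnt3a, did not hold by the size of the difference alone. Among 16001 tested genes with a RefSeq symbol, PNLIPRP3 ranked 16, PSCA 17, SLC26A9 19 and TPPP2 20. The lowest differences belonged to SLC17A4 (-2.33), UGT2B15 (-2.28), KNG1 (-2.06), SLC10A1 (-2.05) and CYP4B1 (-1.98), several of them genes of hepatocyte transport and metabolism. In the first 20 ranks, all Wnt3a arrays lay below all untreated arrays for the 4 genes and for 1 of the other 16, CYP4B1, on the same arrays that chose the 4.

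Over the 8 conditions, PSCA was highest in untransfected cells, followed by β-catenin siRNA and control siRNA without Wnt3a. With control siRNA its signal was 444%, 416% and 465% without Wnt3a and 139%, 101% and 141% with it. With β-catenin siRNA it was 527%, 513% and 512% without Wnt3a and 180%, 227% and 305% with it. With FZD8_CRD it was 234%, 213% and 117% without Wnt3a and 42.0%, 44.8% and 48.1% with it. Each of the first 3 places was separate from the next, the 4 middle conditions overlapped with their neighbours, and cells given FZD8_CRD and Wnt3a were below all other arrays.

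SLC26A9 was highest in untransfected cells without Wnt3a, which did not overlap with any other condition. With control siRNA it had 4.13%, 4.31% and 4.64% without Wnt3a and 4.01%, 2.55% and 1.60% with it. With β-catenin siRNA it had 5.50%, 3.52% and 4.58% without Wnt3a and 1.33%, 1.71% and 2.07% with it. With FZD8_CRD it had 3.11%, 2.22% and 1.12% without Wnt3a and 1.63%, 0.841% and 1.14% with it. From the second to the last place, each condition overlapped with the next in order, and none of the Wnt3a arrays with β-catenin siRNA or FZD8_CRD was well above background.

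PNLIPRP3 was also highest in untransfected cells without Wnt3a, apart from all other conditions. With control siRNA it had 3.07%, 2.63% and 3.21% without Wnt3a and 0.540%, 0.661% and 0.0501% with it. With β-catenin siRNA it had 1.27%, 1.28% and 1.93% without Wnt3a and 0.212%, 0.0725% and 0.224% with it. With FZD8_CRD it had 2.51%, 1.29% and 0.473% without Wnt3a and 0.0797%, 0.0675% and 0.104% with it. The 9 Wnt3a arrays of these conditions were all at the floor, where values have no order, and only 1 of 3 arrays was well above background with β-catenin siRNA alone and with FZD8_CRD alone.

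TPPP2 followed the same order at its top, with untransfected cells above the rest. With control siRNA it had 4.41%, 5.50% and 4.65% without Wnt3a and 2.90%, 1.00% and 2.45% with it. With β-catenin siRNA it had 6.30%, 3.47% and 3.93% without Wnt3a and 1.19%, 1.94% and 2.21% with it. With FZD8_CRD it had 2.32%, 1.46% and 0.282% without Wnt3a and 0.805%, 0.406% and 0.357% with it. All places below the first overlapped with the next, and the 3 arrays with FZD8_CRD and Wnt3a were at the floor.

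**Figure D1:**
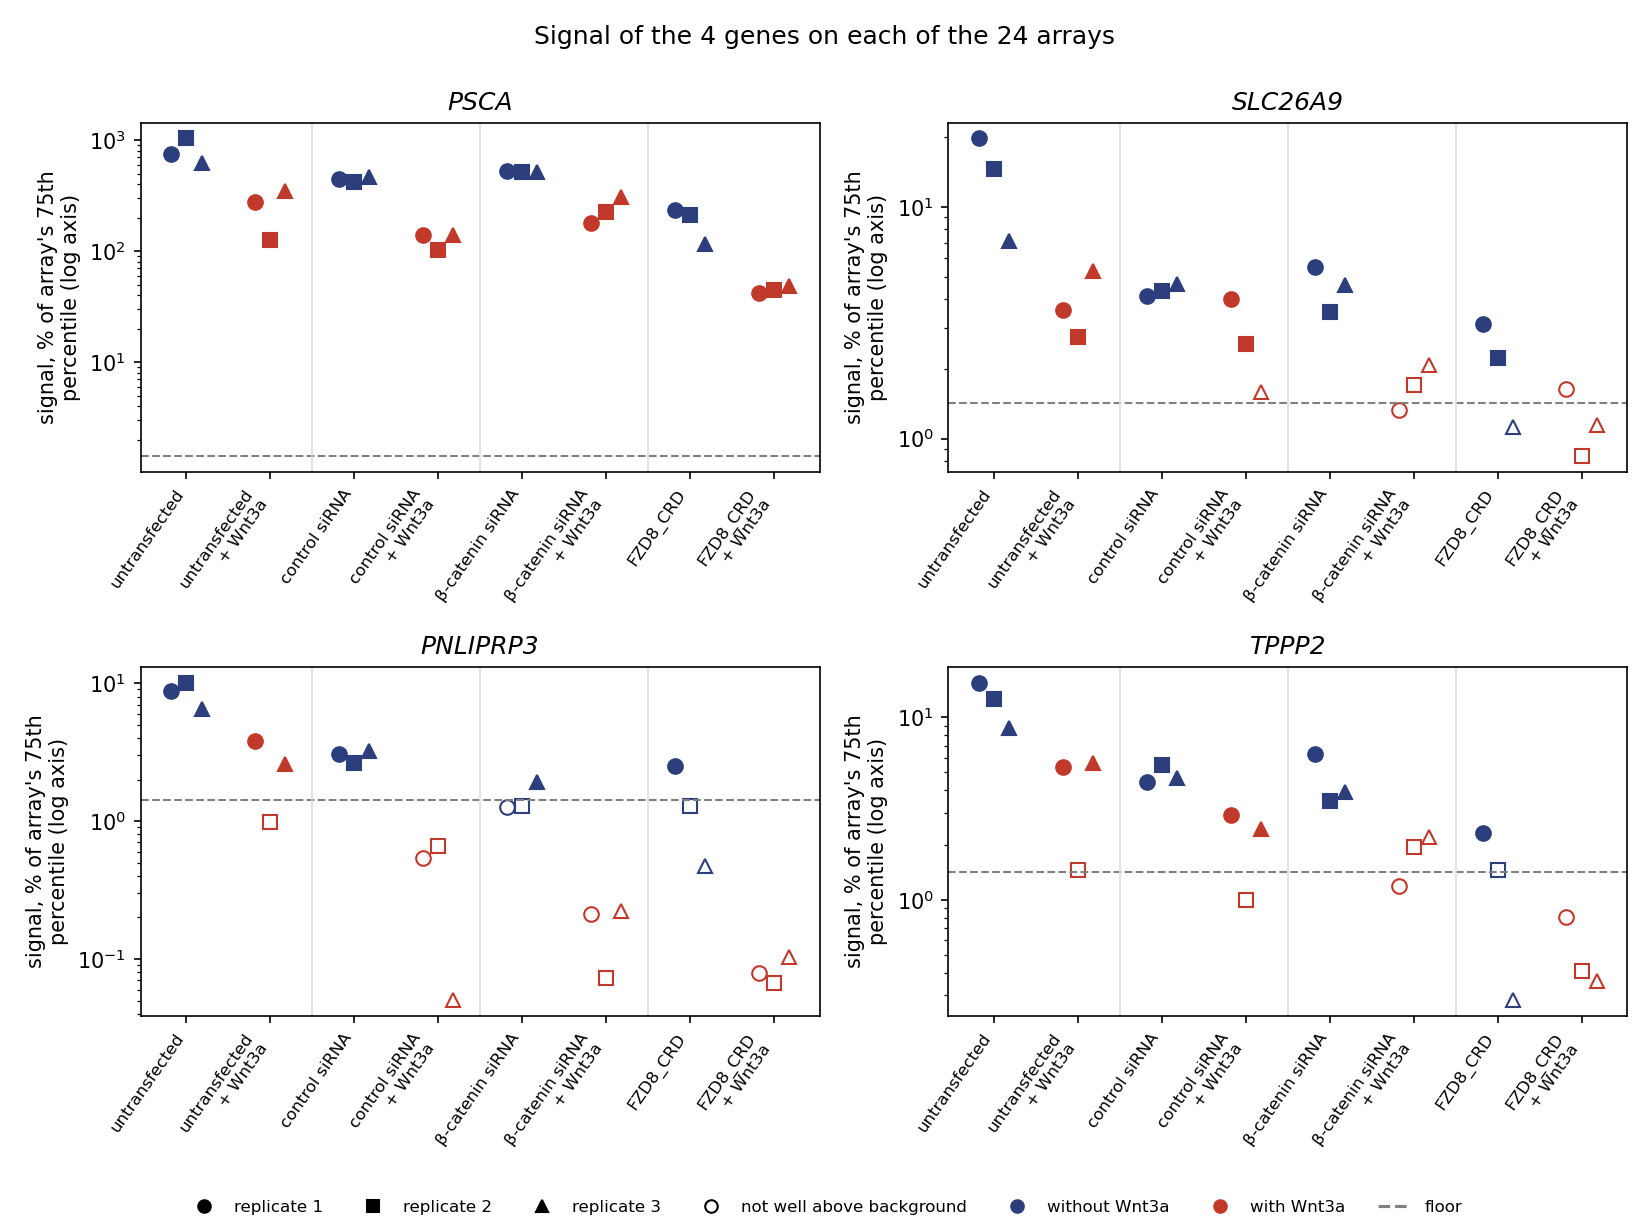
Signal of each gene on the 24 arrays as a percent of the array's 75th percentile (log axis), by condition; each point is 1 array, open points were not well above background and the dashed line is the floor of 1.43%. Untransfected cells without Wnt3a were highest for each gene, and PSCA with FZD8_CRD and Wnt3a, at 42.0% to 48.1%, lay below all its other arrays.

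The conditions without Wnt3a were also set against untransfected cells, the arrays that chose the genes for their high signal, so that lower values elsewhere follow in part from the choice and were not tested. With FZD8_CRD alone, the log2 differences from untransfected cells were -2.12 for PSCA and -2.57 for SLC26A9. For PNLIPRP3 and TPPP2, with 1 of 3 FZD8_CRD arrays well above background each, the values of -2.27 and -2.82 depend on the floor. All arrays with FZD8_CRD lay below all untransfected arrays for 4 of the 4 genes, as for 24.8% of all genes. SLC26A9 was well above background on 2 of the 3 FZD8_CRD arrays. With control siRNA alone, the differences from untransfected cells were -0.83, -1.54, -1.49 and -1.30 in the same order of genes. The arrays again did not overlap for 4 of the 4 genes, as for 17.5% of all genes.

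Among Wnt3a-treated cells, those with FZD8_CRD differed from untransfected cells by -2.35 on the log2 scale for PSCA. SLC26A9 was at least 2.50-fold lower, PNLIPRP3 at least 1.46-fold lower and TPPP2 at least 2.41-fold lower. These bounds allow for background only and not for the spread between arrays. The arrays did not overlap for 3 of the 4 genes, as for 23.2% of all genes, and PNLIPRP3 was apart too before the floor, which made a tie. With control siRNA and Wnt3a, the differences from untransfected Wnt3a-treated cells were -0.87 for PSCA, -0.55 for SLC26A9 and -0.70 for TPPP2, and PNLIPRP3 was at least 1.40-fold lower. With values at the floor counted as tied, 0 of the 4 genes had arrays apart, against 9.92% of all genes. For PNLIPRP3 this rests on such a tie, with replicate 2 of untransfected Wnt3a-treated cells, since its signals before the floor did not overlap.

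The response to Wnt3a was then tested in transfected cells, whose arrays did not choose the genes. With control siRNA, PSCA fell by 1.81 on the log2 scale with Wnt3a (95% interval -2.43 to -1.19), a signal 3.51-fold lower, with an adjusted p of 0.00503 by limma. It was lower on 3 of 3 slides, by -2.04 to -1.67. PSCA was the 1 gene of the 4 called, while 2.11% of all genes were called in either direction, 1.02% lower and 1.09% higher. The log2 differences of the other genes were -0.78 for SLC26A9 (adjusted p = 0.334), -1.05 for PNLIPRP3 (0.0538) and -1.16 for TPPP2 (0.149). With samples left out they ran from -1.15 to -0.40 for SLC26A9, whose slides ran from -1.54 to -0.04, and from -1.44 to -0.76 for TPPP2. PNLIPRP3 was at least 1.95-fold lower, since none of its Wnt3a arrays was well above background. Each of the 4 genes was lower on 3 of 3 slides, with no overlap between the arrays, as for 12% of all genes. With the slide as a block, PNLIPRP3 passed the threshold too (adjusted p = 0.0301, between 0.00609 and 0.371 over all alternatives, with differences of -3.43 to -0.46), and the calls over all genes went from 520 to 1073. Outside the arrays that chose it, PNLIPRP3 passed the filter on dim probes only through control siRNA without Wnt3a, the higher group here. Its values in this comparison are thus a description. SLC26A9 and TPPP2 passed the filter, outside the arrays that chose them, only through control siRNA and β-catenin siRNA without Wnt3a.

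The call of PSCA after control siRNA was lost when replicate 1 or replicate 2 of the whole series was left out, while the difference was similar in size. Without replicate 1 its difference was -1.88 (adjusted p = 0.253) and without replicate 2 it was -1.70 (adjusted p = 0.0836), against a range of 0.00295 to 0.253 over all alternatives. With any single array of these conditions left out, PSCA was still called. The number of genes called, 520, was 4 without replicate 1 and 12 without replicate 2. It was 93, 257 and 57 without control siRNA arrays 1, 2 and 3, and 318, 85 and 143 without those given Wnt3a.

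With FZD8_CRD, the question was whether Wnt3a still lowered the genes when the soluble inhibitor was present. PSCA fell by 2.00 on the log2 scale (95% interval -2.62 to -1.38), a signal 4.01-fold lower, with an adjusted p of 0.000741 by limma. It was lower on 3 of 3 slides, by -2.48 to -1.28. It was the 1 gene of 4 called, while 8.29% of all genes were called in either direction, 3.94% lower and 4.36% higher. SLC26A9 had a log2 difference of -0.52 (95% interval -1.28 to 0.24, adjusted p = 0.490 by limma). It was well above background on 2 of 3 arrays without Wnt3a and on none with it. PNLIPRP3 and TPPP2 had log2 differences of -0.27 (adjusted p = 0.704) and -0.25 (0.847), and both were well above background on only 1 of 3 arrays without Wnt3a and on none with it, which leaves little room for a lower value. The value of PNLIPRP3 depends on the floor, since it was called with the deposited values (-3.31, adjusted p = 0.00979) and with a floor of 1 intensity unit (-3.13, 0.00388), in a range of 0.00388 to 1 over all alternatives. All arrays were apart for 1 of the 4 genes, PSCA, as for 8.45% of all genes, while those of PNLIPRP3 were apart only before the floor.

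The call of PSCA with FZD8_CRD was lost without replicate 1 (-1.77, adjusted p = 0.348), without replicate 2 (-1.88, adjusted p = 0.138) and in a fit of these conditions alone (adjusted p = 0.124), and over all alternatives the adjusted p ran from 1.78e-05 to 0.348. The number of genes called, 2044, moved with single arrays. It was 3, 0 and 5328 without replicates 1, 2 and 3, it was 348, 366 and 4916 without arrays 1, 2 and 3 of FZD8_CRD alone, and it was 872, 878 and 1227 without those given Wnt3a. The PSCA difference was -2.31 without array 3 of FZD8_CRD alone, whose PSCA signal was the lowest of its condition. With the slide as a block, 3298 genes were called. Whether the response of PSCA differed between FZD8_CRD and control siRNA was not tested.

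**Figure D2:**
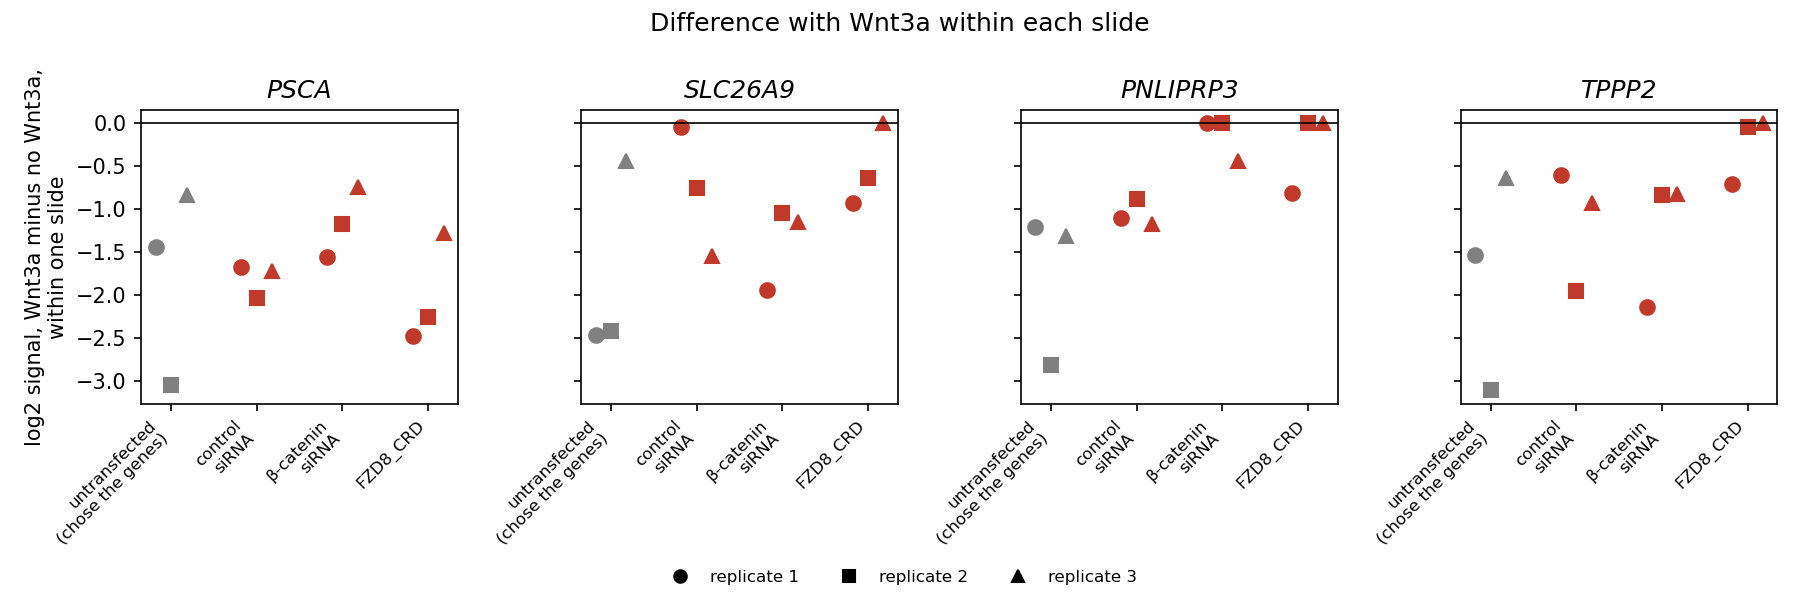
Log2 difference of Wnt3a-treated minus untreated cells within each slide, by gene and background; each point is 1 slide, grey points are the arrays that chose the genes, and points at 0 for the 3 dimmer genes have both arrays at the floor. PSCA was lower with Wnt3a on every slide, by -2.04 to -1.67 with control siRNA and by -2.48 to -1.28 with FZD8_CRD.

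β-Catenin siRNA lowered its target. On the log2 scale, CTNNB1 lay between 0.26 and 0.77 on the 6 arrays with β-catenin siRNA and between 3.22 and 4.11 on the other 18. The difference from control siRNA was -3.03 without Wnt3a (adjusted p = 1.17e-09) and -3.02 with it (adjusted p = 7.76e-10).

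In cells with β-catenin siRNA, the 4 genes had lower means with Wnt3a, but none passed the test. The log2 difference of PSCA was -1.16 (95% interval -1.78 to -0.54, adjusted p = 0.182), with lower values on 3 of 3 slides. The log2 difference of SLC26A9 was -1.38 (95% interval -2.14 to -0.62, adjusted p = 0.186 by limma). That of TPPP2 was -1.27 (-2.11 to -0.43, adjusted p = 0.280 by limma). Each was lower on 3 of 3 slides, and no Wnt3a array had either gene well above background, so that the sizes depend on the floor. PNLIPRP3 was at or near the floor in both conditions, with 1 of 6 arrays well above background. By limma, 0 of the 4 genes were called, against 0.0406% of all genes (0.00406% lower and 0.0365% higher), and 3 of the 4 had an unadjusted p under 0.05, as had 2575 of 24648 genes. At the study's thresholds 3 of the 4 passed, with 314 of all genes. Outside the arrays that chose them, SLC26A9 and TPPP2 passed the filter on dim probes only through control siRNA and β-catenin siRNA without Wnt3a. The latter is the higher group here, so that for both genes these counts are a description. The arrays did not overlap for 3 of the 4 genes, as for 10.4% of all genes, and the signals of PNLIPRP3 were tied at the floor but apart before it. Only 10 genes of all those tested were called in this comparison, and 42 with the slide as a block. Leaving out replicates 1, 2 and 3 gave 1, 0 and 96, leaving out β-catenin siRNA arrays 1 and 3 gave 0 and 1, and leaving out arrays 1, 2 and 3 with Wnt3a gave 2, 0 and 3.

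The difference between the responses of the siRNAs to Wnt3a was tested directly. For PSCA the response was 0.65 less negative with β-catenin siRNA (95% interval -0.22 to 1.53, adjusted p = 1). For SLC26A9 the difference was -0.60 (-1.67 to 0.47), for TPPP2 -0.11 (-1.29 to 1.07) and for PNLIPRP3 0.91 (0.09 to 1.73), each with an adjusted p of 1. For PNLIPRP3 both Wnt3a conditions were at the floor. Its value is thus the difference between the siRNAs without Wnt3a (-0.91) with the sign turned, and does not measure a difference in response. Outside the arrays that chose it, PNLIPRP3 passed the filter only through control siRNA without Wnt3a, so that its interval and p are a description. Over all alternatives the difference ran from 0.36 to 0.92 for PSCA and from 0.10 to 1.05 for PNLIPRP3. Without replicate 1 the sign turned for TPPP2 (0.60) and SLC26A9 (0.0539). That of TPPP2 also turned without array 1 of control siRNA with Wnt3a (0.10), of β-catenin siRNA (0.15) or of β-catenin siRNA with Wnt3a (0.07), and with quantile normalization (0.00968), normexp (0.0085) and the deposited values (0.0123). By limma, 0 of the 4 genes were called, against 0.0162% of all genes (0.0122% lower and 0.00406% higher), and 1 of the 4, PNLIPRP3, had an unadjusted p under 0.05, as had 822 of 24648 genes. At the study's thresholds 0 of the 4 were called and 140 of all genes. The intervals of PSCA, SLC26A9 and TPPP2 left room for differences of more than 1 on the log2 scale. Over all genes, 4 were called, and treating the slide as a block called 10. Leaving out replicates 1, 2 and 3 called 1, 0 and 11, and leaving out single arrays called 2 to 4.

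Without Wnt3a, β-catenin siRNA was compared with control siRNA. PNLIPRP3 was called lower (log2 difference -0.91, adjusted p = 0.0417 by limma), on 3 of 3 slides. After β-catenin siRNA 2 of its 3 arrays were at the floor and 1 was well above background, so that the size of the difference depends on the floor. Of the conditions outside those that chose it, only control siRNA without Wnt3a, where it was high, brought PNLIPRP3 through the filter on dim probes, so that its call is a description. It was the 1 gene of 4 called, while 10.6% of all genes were called, 6.16% lower and 4.4% higher. The call was close to the threshold and was lost without any 1 of the 6 arrays (adjusted p between 0.0551 and 0.131) or of the 3 replicates (between 0.149 and 0.236). It was also lost with normexp, the deposited values, the spike-in scaling and a floor of 1 intensity unit, so that over all alternatives the adjusted p ran from 0.0227 to 0.499. PSCA had a log2 difference of 0.23 (adjusted p = 0.771), SLC26A9 0.03 (0.989) and TPPP2 -0.13 (0.931). The arrays with β-catenin siRNA lay below those with control siRNA for 1 of the 4 genes, PNLIPRP3, as for 20.3% of all genes. The signal of PSCA was 512% to 527% with β-catenin siRNA and 416% to 465% with control siRNA. How many of all genes were apart in this direction was not counted, so that no weight is given to it. With the slide as a block, 4095 genes were called in place of 2604. This count was 502 without replicate 1 and 474 without replicate 2, 1434 and 1724 without control siRNA arrays 1 and 2, and 1722 and 1353 without β-catenin siRNA arrays 1 and 3.

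With Wnt3a present, PSCA was higher after β-catenin siRNA than after control siRNA by 0.88 on the log2 scale (standard error 0.30), on 3 of 3 slides, by 0.37 to 1.16. It missed the threshold (adjusted p = 0.0649) and passed it without replicate 1 of β-catenin siRNA with Wnt3a, where the difference was 1.07 (adjusted p = 0.0470, between 0.0405 and 0.541 over all alternatives). SLC26A9 was at least 1.48-fold lower (adjusted p = 0.429) and TPPP2 at least 1.08-fold lower (adjusted p = 0.852), both with 2 of 3 control siRNA arrays well above background. The slides did not share a direction, with within-slide differences of -1.49 to 0.38 for SLC26A9 and -1.03 to 0.45 for TPPP2, and with samples left out the differences ran from -1.04 to -0.10 and from -0.59 to 0.15. PNLIPRP3 was not well above background on any of the 6 arrays and was at the floor. By limma, 0 of the 4 genes were called, against 10.6% of all genes (6.5% lower and 4.08% higher), and 1, PSCA, had an unadjusted p under 0.05, as had 5400 of 24648 genes, and passed the study's thresholds, with 1593 of all genes. For 0 of the 4 genes did the arrays with β-catenin siRNA all lie below those with control siRNA, as they did for 15.4% of all genes. The signal of PSCA was 180% to 305% with β-catenin siRNA and 101% to 141% with control siRNA. How many of all genes were apart in this direction was not counted, so that no weight is given to it. The number of genes called, 2608, was 918 without replicate 1, 588 without replicate 2 and 1682 without array 2 of β-catenin siRNA with Wnt3a.

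**Figure D3:**
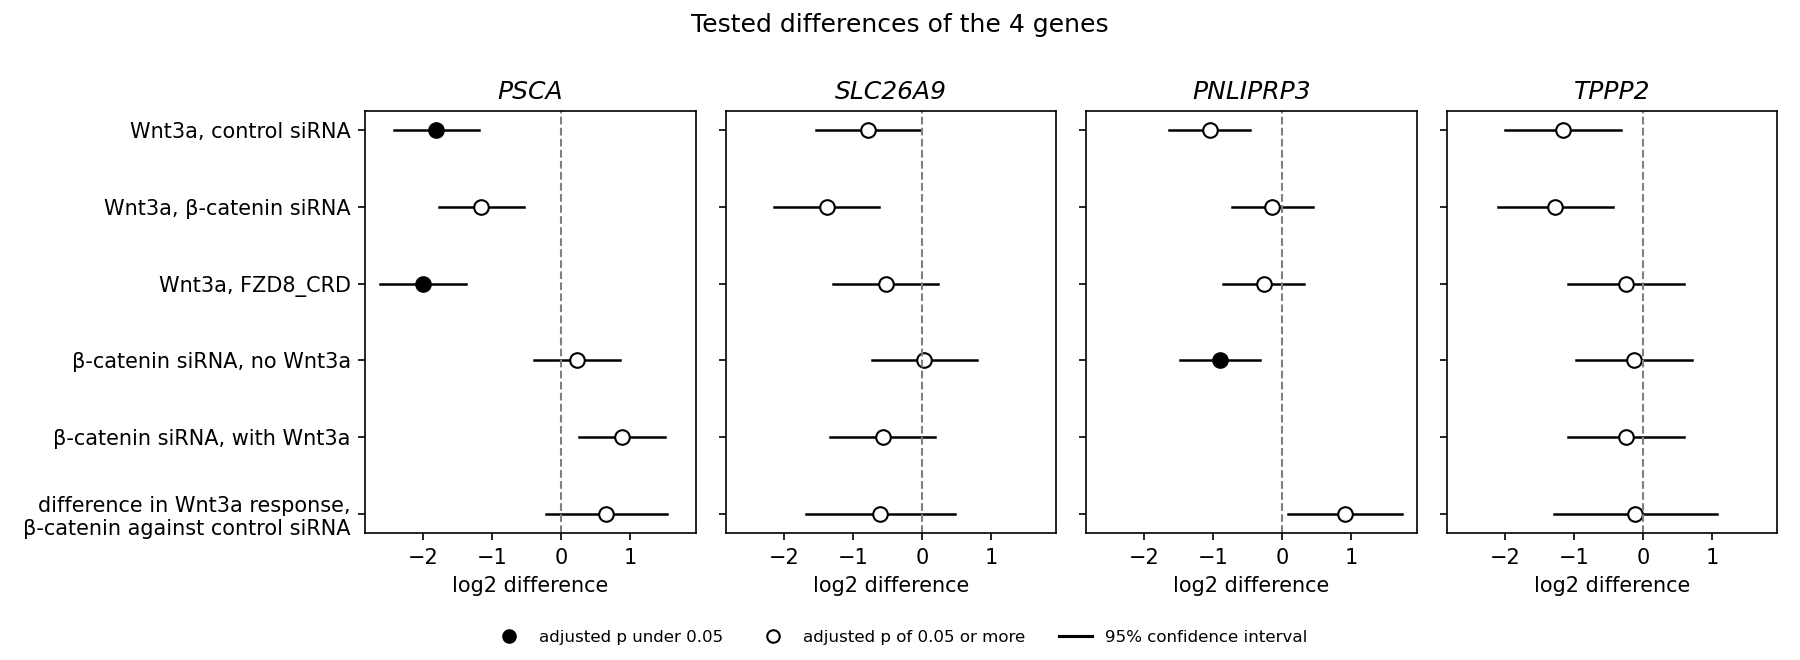
Log2 differences of the 4 genes in the 6 tested comparisons, with 95% confidence intervals from limma; filled points had an adjusted p under 0.05, and the comparison in which no array had PNLIPRP3 well above background is not drawn. PSCA fell by 1.81 with control siRNA and by 2.00 with FZD8_CRD, and the call of PNLIPRP3 with β-catenin siRNA (-0.91, with 2 of 3 arrays at the floor) was lost without any 1 array.

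Feedback targets of Wnt signaling show the state of the pathway in the same comparisons. Of the 14 listed, 11 were tested, and LGR5, NOTUM and TNFRSF19 were too dim. With control siRNA, Wnt3a raised 5 of the 11 and lowered 0, against 1.09% and 1.02% of all genes, with a median of 0.60 against 0.02 for all genes. These were the negative regulators AXIN2 (0.60, adjusted p = 0.00662), NKD2 (0.70, 0.00674) and RNF43 (1.02, 9.77e-05) and the transcription factors LEF1 (0.61, 0.0406) and TCF7 (1.40, 0.00779). With β-catenin siRNA, 0 of the 11 were called by limma, against 0.0406% of all genes, and the median was 0 against 0.03 for all genes. Of the 11, 1 had an unadjusted p under 0.05, as had 2575 of 24648 genes. With FZD8_CRD, RNF43 (0.81) and TCF7 (1.64) rose and APCDD1 (-1.54) and DKK1 (-0.88) fell, against 4.36% of all genes called higher and 3.94% lower. β-Catenin siRNA lowered 5 of the 11 without Wnt3a (6.16% of all genes) and 7 of the 11 with it (6.5% of all genes), in each case including RNF43, TCF7, LEF1 and ZNRF3. Of these genes, 1, RNF43, differed in its response to Wnt3a between the siRNAs (-1.23, adjusted p = 0.00130), against 0.0162% of all genes. This call was lost without replicate 1 (-1.15, 0.331), without replicate 2 (-1.37, 0.737) and with the spike-in scaling (-1.52, 0.497), over a range of 0.000319 to 0.737.

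Relatives of the 4 genes were examined as lists, whose counts here and below stand against the shares of all genes called by limma. With Wnt3a, 1.02% were lower and 1.09% higher after control siRNA, and 0.0406% were called after β-catenin siRNA. With FZD8_CRD and Wnt3a, 3.94% were lower and 4.36% higher. β-Catenin siRNA gave 6.16% lower and 4.4% higher without Wnt3a, and 6.5% lower and 4.08% higher with it. The difference between the siRNAs gave 0.0162%. In the Ly6/uPAR family of PSCA, 16 of 21 genes were tested. With control siRNA, Wnt3a lowered 1 of the 16, LY6D (-1.18, adjusted p = 0.0251), against 1.02% of all genes. The list median was 0.13 against 0.02 for all genes, with 10 positive and 6 negative differences. With FZD8_CRD, LY6D (-1.36), LY6E (-0.72) and LY6K (-1.34) fell and LYPD1 (0.95) and PLAUR (0.83), the urokinase receptor, rose. β-Catenin siRNA raised CD59, an inhibitor of complement, by 0.86 both without and with Wnt3a, and lowered PLAUR by -0.72 and -0.59. It also raised LYPD1 without Wnt3a (1.03) and lowered LY6D with it (-0.85, adjusted p = 0.0462). By limma, 0 of the 16 were called with Wnt3a after β-catenin siRNA (2 at an unadjusted p under 0.05) or for the difference between the siRNAs (1). With Wnt3a under FZD8_CRD, 9 of the 16 had negative differences and 7 positive, and the 3 called lower stand against 3.94% of all genes.

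Of 9 other SLC26 anion transporters, 5 were tested. After control siRNA, the sulfate transporter SLC26A2 rose with Wnt3a (0.70, 0.0146 as adjusted p), and it fell with β-catenin siRNA without Wnt3a (-0.67, 0.00383) and with it (-0.89, 0.000261). By limma, 0 of the 5 were called with Wnt3a after β-catenin siRNA (1 at an unadjusted p under 0.05), with Wnt3a and FZD8_CRD (1) or for the difference between the siRNAs (0). Of 12 other genes of epithelial chloride and bicarbonate secretion, 8 were tested. SLC4A2 was lower with β-catenin siRNA without Wnt3a (-0.25, 0.0346) and SLC4A4 was higher with β-catenin siRNA under Wnt3a (0.89, 0.0109). In the 3 Wnt3a comparisons, 0 of the 8 were called by limma, with 2, 3 and 2 at an unadjusted p under 0.05 after control siRNA, β-catenin siRNA and FZD8_CRD, and the difference between the siRNAs gave 0 and 0.

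Among 9 other genes of the pancreatic lipase family, 6 were tested. LPL, lipoprotein lipase, was lowered by Wnt3a both after control siRNA (-0.75, 0.00291) and under FZD8_CRD (-0.66, 0.00204), and it fell with β-catenin siRNA without Wnt3a (-0.45, 0.0147). LIPG, endothelial lipase, rose with Wnt3a under FZD8_CRD (1.12, 0.0120) and was lower with β-catenin siRNA under Wnt3a (-1.44, 0.000914). By limma, 0 of the 6 were called with Wnt3a after β-catenin siRNA (2 at an unadjusted p under 0.05) or for the difference between the siRNAs (2). Both other genes of the TPPP family were tested, and TPPP rose with β-catenin siRNA without Wnt3a (0.68, 0.00489), while 0 of the 2 were called in the other comparisons by limma (1 at an unadjusted p under 0.05, for β-catenin siRNA under Wnt3a).

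PSCA and SLC26A9 are known from gastric epithelium, and so a list of 17 gastric mucous genes was followed, 13 of them tested, with MUC1 the brightest. MUC5AC was not on the array, and GKN2, CLDN18 and CAPN8 were too dim. With control siRNA, Wnt3a lowered 2 of the 13, against 1.02% of all genes, AGR2 (-1.21, adjusted p = 0.0324), an endoplasmic reticulum protein of mucous cells, and VSIG1 (-0.85, 0.0497), with a list median of -0.19 against 0.02 for all genes. With FZD8_CRD, AGR2 (-2.19, 0.000242) and VSIG1 (-1.23, 0.00262) fell and the protease CTSE rose (2.00, 0.0209). β-Catenin siRNA lowered the mucin MUC1 (-1.19 without and -0.93 with Wnt3a) and the trefoil factors TFF2 (-0.96 and -0.91) and TFF3 (-0.82 and -0.80). It also lowered AGR2 without Wnt3a (-1.59) and raised VSIG1 with it (0.93). Of the 13, 0 were called with Wnt3a after β-catenin siRNA by limma (1 at an unadjusted p under 0.05) and 0 for the difference between the siRNAs (1).

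Markers of hepatocytes moved with the levels of the 4 genes in part of the conditions. All 8 listed markers were tested, with ALB the brightest. Their summed signal in untransfected cells was 142675%, 107988% and 76282% of the 75th percentile without Wnt3a and 88953%, 38967% and 88983% with it. With control siRNA it was 40283%, 37037% and 38239% without Wnt3a and 26526%, 19046% and 25768% with it. With β-catenin siRNA it was 61589%, 47003% and 59035% without Wnt3a and 28159%, 38697% and 49025% with it. With FZD8_CRD it was 36354%, 24395% and 36493% without Wnt3a and 39252%, 38376% and 37707% with it. The sum was thus highest in untransfected cells, as were the 4 genes, and lower with Wnt3a after control siRNA, whereas under FZD8_CRD every Wnt3a array was above every array without it, in the comparison in which PSCA fell.

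In untransfected cells, the 8 hepatocyte markers had a median difference of -0.98 with Wnt3a and of -2.37 with FZD8_CRD, all 8 negative in both, against 0.01 and -0.09 for all genes. For control siRNA against untransfected cells the medians were -1.96 without and -1.30 with Wnt3a, all 8 negative in both. All genes had -0.03 and -0.02. For FZD8_CRD against untransfected cells, both with Wnt3a, the median was -0.90 (6 negative, 2 positive) against -0.08 for all genes. After control siRNA, 0 of the 8 were called with Wnt3a by limma (2 at an unadjusted p under 0.05), with a median of -0.25. After β-catenin siRNA, 0 were called as well (2 at an unadjusted p under 0.05), with a median of -0.59. With FZD8_CRD, APOA1 (2.22, adjusted p = 0.0379) and TTR (2.62, 0.0283) rose with Wnt3a. β-Catenin siRNA raised ALB (1.19, 0.0156) in the presence of Wnt3a. The part of hepatocyte content in the levels of PSCA, SLC26A9, PNLIPRP3 and TPPP2 was not tested.

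**Figure D4:**
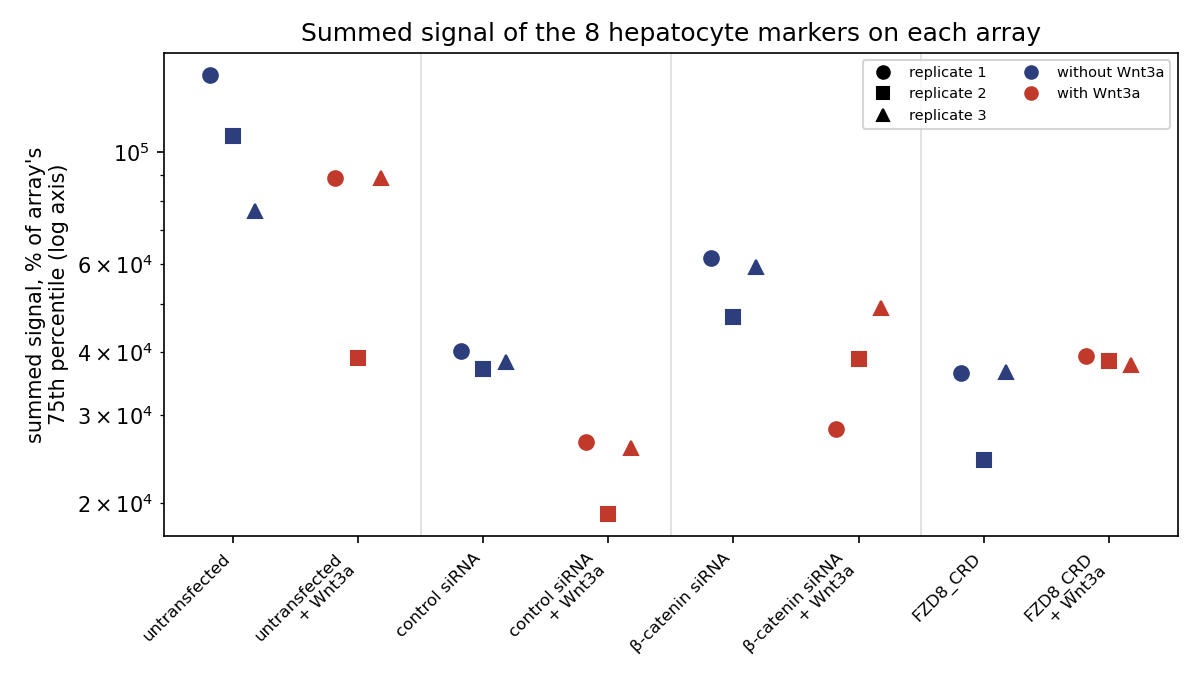
Summed signal of the 8 hepatocyte markers on each array as a percent of the array's 75th percentile (log axis), by condition; each point is 1 array. Untransfected cells without Wnt3a had 76282% to 142675%, and with FZD8_CRD the Wnt3a arrays, at 37707% to 39252%, lay above the arrays without it.

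Markers of other cell types were read in the same way. Of 6 biliary or progenitor markers, 5 were tested, with KRT19 the brightest and EPCAM too dim. SPP1 was higher with β-catenin siRNA without (0.93) and with Wnt3a (0.82), while CD24 (-0.83) and SOX9 (-0.57) were lower with it under Wnt3a, and in the Wnt3a comparisons 0 of 5 were called by limma (2, 2 and 1 at an unadjusted p under 0.05). Of 6 mesenchymal markers, 5 were tested, with CDH2 the brightest and THY1 too dim. In the order of replicates, their summed signal after control siRNA was 2241%, 2247% and 2103% without Wnt3a and 2518%, 2611% and 2551% with it. With FZD8_CRD it was 2449%, 2512% and 2979% without Wnt3a and 3811%, 3788% and 3319% with it. After β-catenin siRNA it was 2437%, 2498% and 2346% without Wnt3a and 2703%, 2589% and 2521% with it. In untransfected cells it was 2397%, 2312% and 2134% without Wnt3a and 2582%, 3135% and 2577% with it, so that every Wnt3a array was above every array without it in each of the 4 backgrounds. COL1A1 and COL1A2 rose with Wnt3a after control siRNA (2.19 and 1.80) and under FZD8_CRD (2.65 and 2.22), and VIM (0.75) and ACTA2 (0.26) rose with Wnt3a under FZD8_CRD. After control siRNA, 3 of the 5 had positive and 2 negative differences (median 0.16 against 0.02 for all genes), and 1.09% of all genes were called higher. Under FZD8_CRD 5 were positive and 0 negative, and 4.36% of all genes were called higher. After β-catenin siRNA 4 were positive and 1 negative, and 0 of the 5 were called by limma, against 0.0406% of all genes. β-Catenin siRNA lowered VIM (-0.86 without and -0.84 with Wnt3a), raised CDH2 (0.37 and 0.47) and, under Wnt3a, lowered COL1A1 (-1.47) and COL1A2 (-1.75).

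All 4 endothelial markers were tested, with KDR, a receptor of vascular growth factors, the brightest. Their summed signal after control siRNA was 321%, 329% and 291% without Wnt3a and 226%, 234% and 213% with it, and after β-catenin siRNA 360%, 361% and 352% without and 291%, 363% and 344% with it. With FZD8_CRD it was 184%, 166% and 95.9% without Wnt3a and 79.5%, 76.3% and 91.4% with it. In untransfected cells it was 345%, 420% and 345% without Wnt3a and 284%, 223% and 341% with it. The sums were mostly KDR, and of the 4 markers 2 had positive and 2 negative differences with Wnt3a both after control siRNA (median 0.05) and under FZD8_CRD (median 0.06). KDR fell with Wnt3a under FZD8_CRD (-0.99, adjusted p = 0.00705), and PECAM1 fell with β-catenin siRNA without Wnt3a (-0.94, 0.0196). Of 4 blood cell markers, 3 were tested, with CD14 the brightest and HBB too dim, and CD14 fell with β-catenin siRNA without (-1.12) and with Wnt3a (-1.30). The part of these markers in the values of the 4 genes was not tested.

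The 95 calls of list genes and other named genes outside the 4 were sensitive to single replicate numbers. With replicate 1 left out, 29 of the 95 were still called, with replicate 2 left out 19, and with replicate 3 left out 79. All 95 kept their direction in each case. With the slide as a block all 95 were called, and with the scaling to spike-in probes 36 were, all 95 in the same direction.

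Among the 5 genes with the lowest differences in untransfected cells, 2 were called in any tested comparison. UGT2B15, an enzyme of glucuronidation, was higher with β-catenin siRNA without (2.70, adjusted p = 0.0118) and with Wnt3a (2.52, 0.0166), and CYP4B1, a cytochrome P450, fell with Wnt3a under FZD8_CRD (-1.68, 0.0191). Whether these genes differed from PSCA was not tested.

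The similarity of patterns was described by Pearson's r over the 24 arrays, which share conditions and slides and include those that chose the genes, so that no test was made. Between the 4 genes, r ran from 0.672 for PSCA and PNLIPRP3 to 0.933 for SLC26A9 and TPPP2. Of 15997 other genes, those most like PSCA were ECSIT (0.979), LY6E-DT (0.974) and NDRG2 (0.974). Those most like SLC26A9 were LOC100506253 (0.951), SYVN1 (0.947) and COX6A2 (0.943). Those most like TPPP2 were HSD11B2 (0.960), PGLYRP2 (0.958) and NPY6R (0.954), and those most like PNLIPRP3 were C3P1 (0.916), ITGA8 (0.915) and SEC14L4 (0.908).

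These genes were picked for their likeness to the 4 over the same arrays, and so their calls are no evidence apart from those of the 4. With control siRNA, Wnt3a lowered ECSIT by -0.31 (adjusted p = 0.0361), NDRG2 by -0.80 (0.0420), HSD11B2 by -0.97 (0.0258), ITGA8 by -1.15 (0.0152) and PGLYRP2 by -1.40 (0.0399). Under FZD8_CRD, Wnt3a lowered ECSIT by -0.29 (0.0209), LY6E-DT by -1.54 (0.00484) and NDRG2 by -0.91 (0.00903).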

How the data were processed

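Total RNA of 24 HepaRG cultures was labelled with Cy3 and hybridised to Agilent arrays of 62976 spots (50683 probes). The authors deposited intensity on a linear scale, per the file headers after background subtraction and detrending by Feature Extraction (10.7.3.1 in the processing notes, another version in the headers), and these scanner files are not normalized between arrays. A second deposited set, normalized by the authors, holds log2 values relative to the 75th percentile and centred on the median of each probe, which served as an alternative.

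Intensities were divided by the 75th percentile of the array, outlier spots were left out, and values under the floor (-6.13 on the log2 scale) were raised to it. A probe was kept if some condition had it well above background on its 3 arrays, and the brightest probe stood for its gene. A mean for each condition was fitted to all 24 arrays in R 4.3.3 by limma 3.58.1, with its functions lmFit, contrasts.fit and eBayes, the last given a trend (data read with data.table in version 1.17.8), two-sided and with Benjamini-Hochberg adjustment over 24648 genes, and called at an adjusted p under 0.05. The model was tested on simulated data. A fold given as at least a value compares the brighter group with the higher, on each array, of the lowest signal well above background and the probe's own. Such a bound allows for background only and not for the spread between arrays. Plots come from matplotlib 3.10.9 in Python 3.11.15.

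Between 58.3% and 66.5% of spots were well above background, and the 75th percentile was 643 to 934 intensity units. No 2 arrays of a condition were copies (highest correlation 0.996). The replicate number, which is the slide, paired the samples: deviations from condition means correlated at 0.38 on average within numbers and -0.19 between them, over 0.1 in 82 of 84 pairs and in every pair of the tested comparisons. The study names no pairing, so the slide was tried as a block.

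The 4 genes and the 12 gene lists were chosen with earlier results of these data known. Named genes were the 4, the 5 others with the lowest difference in untransfected cells, the 3 with the most similar pattern for each of the 4, CTNNB1, and list genes called in any tested comparison. Other list genes are named only as the brightest, absent or too dim. Alternatives were quantile normalization, normexp (offset 50, on the median signal) with quantile normalization, the deposited values, scaling to 7 spike-in probes, no filter, a filter on all 24 arrays, a floor of 1 intensity unit, the mean of probes, marked spots kept, the block, only the conditions compared, eBayes without a trend, the study's thresholds (unadjusted p under 0.01 and a fold above 1.5 or below 0.7), and leaving out replicates and single arrays.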

Additional observations from a re-analysis of the deposited data

Results flagged for a closer look

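RNF43, a negative regulator of Wnt signaling, was singled out because its response to Wnt3a differed between β-catenin siRNA and control siRNA by -1.23 on the log2 scale (adjusted p = 0.00130 by limma). Without replicate 1 the difference was -1.15 (adjusted p = 0.331), without replicate 2 it was -1.37 (0.737) and with scaling to spike-in probes it was -1.52 (0.497), against a range of 0.000319 to 0.737 over all alternatives. No value of PSCA, SLC26A9, PNLIPRP3 or TPPP2 was singled out in this way. Groups of 3 arrays were not searched for single arrays far from the others.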

How the results depend on the processing

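Under scaling to spike-in probes, the median of all genes moved to 0.18 for Wnt3a after control siRNA, -0.09 after β-catenin siRNA, -0.07 with FZD8_CRD and -0.37 in untransfected cells, and to 0.05 and -0.21 for β-catenin siRNA without and with Wnt3a and -0.27 for the difference between the siRNAs. The 4 scalings turned the sign of no call of a named gene and, among the 4 genes, only of the TPPP2 difference between the siRNAs, which was not called. After control siRNA, 54 genes were higher and 2 lower with Wnt3a by the spike-in scaling, against 269 and 251, and PSCA was still called (-1.65, adjusted p = 0.0382). With β-catenin siRNA under Wnt3a, 39 were higher and 600 lower, against 1006 and 1602. With FZD8_CRD, 163 were higher and 73 lower with Wnt3a, against 1074 and 970. The filter on all 24 arrays left only PSCA tested. Signal over background limits PNLIPRP3, TPPP2 and SLC26A9. Unless the construction shows it, the cause of a change was not tested.

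Genes called with Wnt3a after control siRNA numbered 56 by spike-ins and 1411 with only the conditions compared, and 4 to 574 with arrays or replicates left out. After β-catenin siRNA they numbered 5 with normexp and without a trend, 0 by spike-ins, 6 with marked spots kept, 90 with only the conditions compared and 314 at the study's thresholds, and 0 to 96 with samples left out. With FZD8_CRD they numbered 236 by spike-ins, 0 with only the conditions compared and 0 to 5328 with samples left out. For β-catenin siRNA without Wnt3a they numbered 172 by spike-ins, 4325 with only the conditions compared, 1395 at the study's thresholds and 474 to 2374 with samples left out, and with Wnt3a 639, 1593 (spike-ins, study's thresholds) and 588 to 2646. For the difference between the siRNAs they numbered 0 by spike-ins, 7 with the mean of probes and without a trend, 40 with only the conditions compared, 140 at the study's thresholds and 0 to 11 with samples left out.

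With the slide as a block, the genes called were 1073, 42, 3298 and 4095 for Wnt3a after control siRNA, after β-catenin siRNA and with FZD8_CRD and for β-catenin siRNA without Wnt3a, and 10 for the difference between the siRNAs. The block called 2 of the 4 genes after control siRNA, with PNLIPRP3 at -1.05 (adjusted p = 0.0301), and changed no other call of the 4 genes. Outside the arrays that chose it, PNLIPRP3 passed the filter only through the higher group of that comparison.

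Of the 4 genes, 2 were called with Wnt3a after control siRNA by quantile normalization, normexp, deposited values, the floor of 1 unit, without a trend and with only the conditions compared, 3 at the study's thresholds, and 0 to 1 with samples left out. The second was PNLIPRP3, at -1.09, -0.46, -3.43, -3.04, -1.05 and -1.05, and the study's thresholds added PNLIPRP3 (-1.05) and TPPP2 (-1.16). For PNLIPRP3 and TPPP2 the limit of the filter holds for these calls too. After β-catenin siRNA those thresholds called 3, PSCA (-1.16), SLC26A9 (-1.38) and TPPP2 (-1.27), the last 2 with the limit of the filter given above. With FZD8_CRD, deposited values and the floor of 1 unit called 2, with PNLIPRP3 at -3.31 and -3.13, only the conditions compared called 0 (PSCA -2.00, adjusted p = 0.124), and 0 to 1 were called with samples left out. For β-catenin siRNA without Wnt3a, 0 were called with normexp, deposited values, spike-ins and the floor of 1 unit (PNLIPRP3 -0.20, -0.93, -0.88 and -1.02), 0 with the filter on all 24 arrays, which leaves PNLIPRP3 out, 0 to 0 with samples left out, and 2 with only the conditions compared, PSCA included (0.23, adjusted p = 0.0290). With Wnt3a, only the conditions compared and the study's thresholds called 1, PSCA (0.88), and 0 to 1 were called with samples left out.

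With samples left out, PSCA ran from -1.89 to -1.65 with Wnt3a after control siRNA, from -2.36 to -1.77 with FZD8_CRD and from 0.68 to 1.14 for β-catenin siRNA under Wnt3a. PNLIPRP3 ran from -1.05 to -0.81 for β-catenin siRNA without Wnt3a. In that comparison SLC26A9 ran from -0.16 to 0.20, with -0.01 and -0.12 also of turned sign, and TPPP2 from -0.46 to 0.13, with 0.04 also of turned sign. With Wnt3a, TPPP2 ran from -0.59 to 0.15. For the difference between the siRNAs, SLC26A9 ran from -1.10 to 0.05 (0.0539, without replicate 1) and TPPP2 from -0.72 to 0.60, and TPPP2 was 0.00968 by quantile normalization, 0.0085 by normexp and 0.0123 by deposited values. None of the values of turned sign was called. In untransfected cells PSCA ran from -2.25 to -1.14, SLC26A9 from -2.44 to -1.43, PNLIPRP3 from -2.11 to -1.26 and TPPP2 from -2.32 to -1.08, and normexp gave -0.92, -0.58 and -0.70 for the last 3.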
